A study of Homo sapiens with 3 samples.

Results

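The pyruvate dehydrogenase complex and the enzymes that switch it on and off were followed through a pooled knockout screen by the abundance of the guide RNAs that target them. Members were chosen by gene name, as all guides whose target is PDHA1, PDHB, DLAT, DLD, PDHX, PDK1, PDK2, PDK3, PDK4 or PDP1. The count files held guides against 9 of these 10 genes, and PDP1, a phosphatase of the complex, was not analysed here. The 9 genes carried 10 guides each, 90 of the 30197 guides listed, and all 9 were among the 2969 genes scored.

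The screen used MIA PaCa-2, an established line from a human pancreatic ductal adenocarcinoma, transduced with a lentiviral library against metabolic genes and selected with puromycin. The groups were cells grown for 14 days with apilimod, which blocks the lipid kinase PIKfyve, cells grown for 14 days with its solvent DMSO, and the untreated initial population collected at day 0. The label gives the apilimod concentration as 200 nM, and the methods of the study give another value for a 14-day arm, so the concentration is open. Each group was 1 pool of cells and 1 library, so no difference below has a replicate check, and every test compares libraries, not conditions. Guide counts carry no expression values, so the cell line could not be checked against marker genes.

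The complex sits in the mitochondrial matrix and turns pyruvate into acetyl-CoA, the entry of glucose carbon into the citric acid cycle and, through citrate, into fatty acid synthesis. PDHA1 and PDHB form the decarboxylase that takes CO2 from pyruvate. DLAT carries the remaining acetyl group on swinging lipoyl arms and hands it to coenzyme A, DLD reoxidises the lipoyl arms, and PDHX tethers DLD to the core. The kinases PDK1 to PDK4 phosphorylate PDHA1 and silence the complex, while the phosphatases reverse this. DLD also serves the 2-oxoglutarate and branched-chain 2-oxoacid dehydrogenases and the glycine cleavage system, so its loss is not specific to pyruvate.

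In GENCODE 44 on GRCh38, PDHA1 and PDK3 lie on the X chromosome, from 19343893 to 19361718 and from 24465244 to 24550466. DLAT lies on chromosome 11 from 112025408 to 112064404, on the plus strand, with 14 exons in its canonical transcript, and PDHX lies on the same chromosome from 34915829 to 35020591. PDHB lies on chromosome 3 from 58427630 to 58433857, DLD on chromosome 7 from 107891162 to 107931730, PDK4 on chromosome 7 from 95583499 to 95596516, PDK1 on chromosome 2 from 172555373 to 172608669 and PDK2 on chromosome 17 from 50094737 to 50112152. The guides are identified in the files by gene and number, so the exon that each guide cuts was not known here and no guide sequence is shown.

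The libraries held 25599416 counts (apilimod), 26276517 (DMSO) and 24695476 (initial population). A log2 change is the log2 of a guide's share of its library after 14 days over its share at day 0, with a pseudocount of 1, and a gene score is the mean over the gene's guides with at least 100 initial counts. Guides that cut intergenic sequence served as controls, and 487 of them had median log2 changes of 0.22 in apilimod and 0.14 in DMSO, with SDs of 0.73 and 0.40. They started at a median of 1199 counts, against 682 counts for the 85 member guides that were scored and 684.5 for all gene-targeting guides scored. Calls against all gene-targeting guides, whose starting counts are nearer to those of the members, are therefore given beside those against the controls. Both arms were set against the same initial library. The guides of each gene were ranked among these controls in a two-sided exact rank-sum test, adjusted over all 2969 genes after Benjamini and Hochberg, and a gene is called lower or higher at an adjusted p under 0.05. The set of all gene-targeting guides includes those of genes called lower in this test, 862 of 2969 in apilimod and 560 in DMSO.

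After 14 days in apilimod, guides against 4 of the 5 subunit genes were depleted, and DLD had the lowest score. DLD was at -1.12 ± 0.85 (SD, n = 10 guides), PDHA1 at -0.97 ± 0.75 (SD, n = 8 guides), DLAT at -0.91 ± 0.44 (SD, n = 10 guides) and PDHB at -0.83 ± 0.70 (SD, n = 8 guides), so that each lay over 2-fold below the control median. Their adjusted p-values by the exact rank-sum test were 7.63e-07, 0.000188, 1.08e-08 and 0.000144 in that order. PDHX was not called, at -0.30 ± 0.95 (SD, n = 9 guides; exact rank-sum test, adjusted p = 0.101). With PDK2, described with the other kinases, 5 of the 9 members were called lower and 0 higher, where 29% of all genes scored were called lower and 0.236% higher, and 4 members lay over 2-fold below the control median, where 9.77% of all genes did. Against all gene-targeting guides DLD, DLAT and PDHA1 remained lower, and the call of PDHB ended with an adjusted p of 0.0552 in the exact rank-sum test.

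In DMSO the same 4 subunit genes were called lower, with DLD again at the lowest score. DLD was at -1.04 ± 1.07 (SD, n = 10 guides), PDHA1 at -0.61 ± 0.72 (SD, n = 8 guides), PDHB at -0.48 ± 0.40 (SD, n = 8 guides) and DLAT at -0.16 ± 0.32 (SD, n = 10 guides). Their adjusted p-values by the exact rank-sum test were 0.000127, 0.00104, 0.00108 and 0.0297 in the same order. PDHX again was not called, at -0.28 ± 1.03 (SD, n = 9 guides; exact rank-sum test, adjusted p = 0.568). With PDK2, 5 of the 9 members were again called lower and 0 higher, where 18.9% of all genes were lower and 0.842% higher. DLD alone of the 9 lay over 2-fold below the control median, where 6.53% of all genes did. The median score of the subunits was -0.91 in apilimod and -0.48 in DMSO, beside -0.04 and -0.03 over all genes. With all gene-targeting guides in place of the controls, DLD remained lower (exact rank-sum test, adjusted p = 0.0143) and the calls of PDHA1, PDHB and DLAT ended, at adjusted p-values of 0.149, 0.146 and 0.617.

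In order of score the subunits changed places between the arms. In apilimod the order ran from DLD through PDHA1, DLAT and PDHB to PDHX, and in DMSO from DLD through PDHA1, PDHB and PDHX to DLAT. No gap between neighbours in either order exceeded the smaller of the 2 SDs over guides. DLAT moved furthest, at position 245 of 2969 genes by its score in apilimod and at position 989 in DMSO, counted from the lowest.

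DLAT, the acetyltransferase core, was the member called between the arms. Its 10 guides summed to 5604 counts in apilimod, 9724 in DMSO and 10354 in the initial population. Every guide had a smaller share of the library in apilimod than in DMSO, with log2 ratios of apilimod to DMSO from -1.60 to -0.06 and a mean of -0.75 ± 0.50 (SD, n = 10 guides), that is 59.4% of the DMSO level. The 95% counting interval of the ratio lay below 0 for 8 of the 10 guides. The same held for 41.6% of all gene-targeting guides scored and 39.8% of the control guides. For 5 of 10 the ratio lay below the central 95% of the control guides, which ran from -0.73 to 2.59. Of all gene-targeting guides 10.6% lay below that range.

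Guide by guide, sgDLAT_3 had the widest gap, with 241 counts in apilimod, 750 in DMSO and 591 at the start. The guide sgDLAT_7 had 274 counts in apilimod, 646 in DMSO and 723 at the start, sgDLAT_6 had 322, 707 and 746, and sgDLAT_9 had 881, 1916 and 2412. In apilimod these 4 guides kept between 35.2% (sgDLAT_9) and 41.6% (sgDLAT_6) of their starting share. In DMSO the same 4 kept 74.7% or more.

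The guides sgDLAT_1, sgDLAT_4, sgDLAT_5 and sgDLAT_10 lay between, with log2 ratios of -0.60, -0.90, -0.40 and -0.51. Of these sgDLAT_4 had 443 counts in apilimod, 847 in DMSO and 561 at the start, so its share fell in apilimod and grew in DMSO. The guides sgDLAT_2 and sgDLAT_8 barely differed between the arms, with log2 ratios of -0.08 and -0.06 and counting intervals that held 0. Both stood below their start in each arm, at 80.2% and 65.4% of it in apilimod and at 84.6% and 68.4% in DMSO. Without sgDLAT_3 the mean log2 ratio of DLAT was -0.66 ± 0.43 (SD, n = 9 guides).

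To test apilimod against DMSO, each arm was put on a scale with the controls' median at 0 and that of 27 nucleotide synthesis genes at -1, and z is the centred difference in SDs over all genes. DLAT had a z of -2.45, position 23 of 2969 from the lowest, and was called lower, with an adjusted p of 0.0168 (exact rank-sum test) and 8 of 10 guides below the control median on this scale. It was the 1 member of 9 called in this comparison, where 0.539% of all genes were called lower and 0.202% higher. No member had a mean log2 ratio over 2-fold below that of the controls, where 0.472% of all genes did. The call ended with all gene-targeting guides as the null (exact rank-sum test, adjusted p = 0.103) and with N-glycan precursor genes as the -1 of the scale (exact rank-sum test, adjusted p = 0.0702), and z ran from -2.92 to -1.85 over 10 alternatives.

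The decarboxylase genes had mean log2 ratios of apilimod to DMSO of -0.36 ± 1.15 for PDHA1 and -0.35 ± 0.70 for PDHB (SD, n = 8 guides each), and neither was called (exact rank-sum test, adjusted p = 0.578 and 0.845). All 10 guides of PDHA1 summed to 3036 counts in apilimod, 4252 in DMSO and 5110 in the initial population. Those of PDHB summed to 5185, 6721 and 8240 counts in that order. Both sums were thus lowest in apilimod and highest at the start.

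The guides of PDHA1 lay on both sides of 0. The guides sgPDHA1_4, sgPDHA1_10, sgPDHA1_7, sgPDHA1_6 and sgPDHA1_2 had log2 ratios of -1.41, -1.24, -1.08, -1.02 and -0.73, and each ratio lay below the central 95% of the controls. These were 5 of 8 guides, and the median log2 ratio of PDHA1 was -0.87, beside 5 of 10 guides and a median of -0.75 for DLAT. With medians over guides in place of means, z was -1.97 for PDHA1 and -1.85 for DLAT. The guide sgPDHA1_5 stood at nearly the same level in both arms, 49.4% of its starting share in apilimod and 48.1% in DMSO. The guides sgPDHA1_8 and sgPDHA1_9 went the other way, with log2 ratios of 0.71 and 1.87.

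The ratio of sgPDHA1_9 rests on few reads, 102 counts in apilimod (95% Poisson interval 83.2 to 124), 28 in DMSO (18.6 to 40.5) and 119 at the start. This interval covers counting error only, since the guides carry no molecular identifiers and reads are PCR copies. Without this guide the mean log2 ratio of PDHA1 was -0.68 ± 0.77 and its score in DMSO was -0.40 ± 0.40 (SD, n = 7 guides each). The guides sgPDHA1_1 and sgPDHA1_3 had 96 and 50 initial counts and were not scored. With them, under a minimum of 30 initial counts, the score of PDHA1 in DMSO was -0.28 and its call ended (exact rank-sum test, adjusted p = 0.144).

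PDHB showed a split of the same kind with fewer guides on the low side. The guides sgPDHB_7, sgPDHB_6 and sgPDHB_2 had log2 ratios of -1.39, -1.25 and -0.76, below the central 95% of the controls. The guides sgPDHB_4, sgPDHB_5 and sgPDHB_10 lay at -0.01, -0.02 and -0.09 with counting intervals that held 0, and sgPDHB_8 and sgPDHB_9 at 0.25 and 0.50. The median log2 ratio of PDHB was therefore -0.05, beside a mean of -0.35. Of its 2 guides under 100 initial counts, sgPDHB_3 had 8 counts in apilimod, 22 in DMSO and 87 at the start, and sgPDHB_1 had 79, 144 and 81.

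DLD, the dehydrogenase shared with other complexes, had nearly the same score in both arms. Its guides summed to 5677 counts in apilimod, 6225 in DMSO and 8979 in the initial population, and its log2 ratio was -0.08 ± 0.49 (SD, n = 10 guides), with a z of 0.38 (exact rank-sum test, adjusted p = 0.952). The guides differed widely in strength. The guide sgDLD_7 had 62 counts in apilimod, 39 in DMSO and 373 at the start, so that 16.0% of its starting share was left in apilimod and 9.83% in DMSO. The guide sgDLD_1 kept 27.1% and 26.6%, whereas sgDLD_5 stood at 107% and 153%. In each arm 5 of the 10 guides lay below the central 95% of the controls. Of all gene-targeting guides 14.5% did so in apilimod and 13.5% in DMSO. Without sgDLD_7 the score of DLD was -0.95 ± 0.70 in apilimod and -0.78 ± 0.75 in DMSO (SD, n = 9 guides each).

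The mean of PDHX, the tether of DLD, rested on 1 guide. The guide sgPDHX_10 had 205 counts in apilimod, 136 in DMSO and 947 at the start, that is 20.9% and 13.5% of its starting share. Without it the score was -0.05 ± 0.65 in apilimod and 0.04 ± 0.36 in DMSO (SD, n = 8 guides each). The remaining guides ran from -0.97 for sgPDHX_1 to 1.09 for sgPDHX_6 in apilimod. The log2 ratio of PDHX was -0.02 ± 0.72 (SD, n = 9 guides; exact rank-sum test, adjusted p = 0.940). The guide sgPDHX_4, at 8 counts at the start, was not scored, and had 181 counts in apilimod and 17 in DMSO.

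Of the 45 scored guides of the 5 subunits, 21 lay below the central 95% of the controls in apilimod and 10 in DMSO. These were 46.7% and 22.2%, where 14.5% and 13.5% of all gene-targeting guides scored did so. The ratio of apilimod to DMSO lay below that range for 16 of the 45 guides, or 35.6%, beside 10.6% of all gene-targeting guides. It lay above that range for 0 of the 45, where only 0.67% of all gene-targeting guides did. Guides of 1 gene share their target, so these counts describe 5 genes and not 45 independent measurements.

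Of the kinases, 3 of 4 lay within 0.30 of the control medians on the log2 scale in both arms. PDK4, the kinase that starvation induces, had the highest score of the members, 0.48 ± 0.49 in apilimod and 0.44 ± 0.40 in DMSO (SD, n = 10 guides each). PDK1, the kinase known as a target of hypoxia signalling, was at 0.20 ± 0.58 and 0.25 ± 0.43, and PDK3 at 0.19 ± 0.82 and 0.21 ± 0.50 in the same order (SD, n = 10 guides each). None of these 3 was called in either arm by the exact rank-sum test, with adjusted p-values from 0.113 to 0.860. Against all gene-targeting guides PDK4 was called higher in DMSO (exact rank-sum test, adjusted p = 0.0355) and not in apilimod.

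PDK4 stood at position 2834 of 2969 by its score in apilimod and at 2925 in DMSO, counted from the lowest. Its guides summed to 9840 counts in apilimod, 9810 in DMSO and 7248 in the initial population. Those of PDK1 summed to 8399, 9058 and 6786 counts, and those of PDK3 to 7814, 7934 and 6581 counts, in that order. For these 3 genes both 14-day sums exceeded the sum at the start. These are raw counts, and the initial library held the fewest. Less the control median, the scores of PDK4, PDK1 and PDK3 were 0.26, -0.02 and -0.03 in apilimod. In DMSO they were 0.30, 0.11 and 0.07 in that order.

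PDK2, a kinase found in many tissues, was called lower in both arms. Its score was -0.21 ± 0.22 in apilimod and -0.28 ± 0.50 in DMSO (SD, n = 10 guides each; exact rank-sum test, adjusted p = 0.00292 and 0.0264). In apilimod all 10 of its guides were under the control median, and in DMSO 8 of 10. Below the central 95% of the controls fell 0 of 10 in apilimod and 2 of 10 in DMSO. Of all gene-targeting guides 14.5% did so in apilimod and 13.5% in DMSO. The sums of its guides were 7461 counts in apilimod, 7662 in DMSO and 8273 in the initial population. Against all gene-targeting guides both calls ended (exact rank-sum test, adjusted p = 0.578 in apilimod and 0.522 in DMSO), and without its farthest guide the call in DMSO ended as well (adjusted p = 0.0716, score -0.17).

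None of the kinases was called between apilimod and DMSO. Their mean log2 ratios ran from -0.05 for PDK1 to 0.08 for PDK2, and their z from -0.39 to 0.40, and the exact rank-sum test gave an adjusted p from 0.816 to 0.941. Single guides spread widely around these means. The guides sgPDK3_3 and sgPDK3_10 had log2 ratios of -1.71 and 1.64 as the lowest and highest of that gene, and sgPDK1_6 and sgPDK1_9 had -1.25 and 1.17. The ratio lay below the central 95% of the controls for 3 of the 40 kinase guides, or 7.5%, beside 10.6% of all gene-targeting guides.

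PDHA2, the decarboxylase subunit known from testis, was not a member but was scored as well. It was called lower in apilimod, at -0.24 ± 0.32 (exact rank-sum test, adjusted p = 0.00550), and not in DMSO, at -0.07 ± 0.35 (exact rank-sum test, adjusted p = 0.264; SD, n = 10 guides each). Of all genes scored, 29% were called lower in apilimod and 18.9% in DMSO. In apilimod 0 of the 10 PDHA2 guides lay below the central 95% of the controls, where 14.5% of all gene-targeting guides did. Between the arms PDHA2 was not called (exact rank-sum test, adjusted p = 0.712).

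Other genes of the pathway were taken from lists, and none of the counts below was tested between lists. In lipoate synthesis, which makes the cofactor of DLAT, 6 of 8 scored genes were called lower in apilimod and 7 of 8 in DMSO, where 29% and 18.9% of all genes were, with median scores of -1.36 and -1.13, beside -0.04 and -0.03 over all genes. LIAS, the lipoyl synthase, was at -1.69 ± 0.80 in apilimod and -1.34 ± 0.60 in DMSO (SD, n = 8 guides each). LIPT1, a lipoyltransferase, was at -1.15 ± 1.38 and -0.51 ± 0.55 (SD, n = 10 guides each). MCAT, OXSM, MECR and NDUFAB1, which build the octanoyl precursor, were lower in both arms, with OXSM at -1.44 in apilimod and -1.64 in DMSO and MECR at -1.28 and -0.92. HSD17B8 was called lower in DMSO and not in apilimod. No gene of the list was called between apilimod and DMSO.

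Among the other lipoate-dependent complexes, 4 of 10 scored genes were called lower in apilimod and 3 in DMSO, where 29% and 18.9% of all genes were, and 0 were called between the arms. OGDH, the first enzyme of the 2-oxoglutarate dehydrogenase complex, was at -2.43 ± 1.88 and -2.12 ± 1.25 (SD, n = 10 guides each), further down than any pyruvate dehydrogenase subunit. DLST, its acyltransferase and the counterpart of DLAT, was at -0.62 ± 1.19 in apilimod and -0.82 ± 0.86 in DMSO (SD, n = 10 guides each). Its log2 ratio was 0.19 ± 0.68, above 0, and not called (exact rank-sum test, adjusted p = 0.646). GCSH, a lipoyl protein of glycine cleavage, was lower in both arms. GLDC was called lower in apilimod and not in DMSO, with an adjusted p of 0.395 between the arms (exact rank-sum test). The branched-chain genes BCKDHA, BCKDHB and DBT were not called in either arm.

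Upstream of the complex, the mitochondrial pyruvate carrier genes MPC1 and MPC2 were not called. MPC1 was at -0.22 ± 0.59 in apilimod and 0.01 ± 0.63 in DMSO, and MPC2 at 0.08 ± 0.66 and 0.44 ± 0.58 (SD, n = 10 guides each). PKM, the pyruvate kinase, was lower in both arms, at -1.84 and -1.81. In the whole list of pyruvate supply and other fates, 5 of 15 genes were lower in apilimod and 2 in DMSO, where 29% and 18.9% of all genes were, and 0 were called between the arms. SLC16A3, a lactate exporter, was called in both arms. LDHA, GPT and PC were called in apilimod and not in DMSO. Their adjusted p by the exact rank-sum test was 0.0557, 0.137 and 0.403 in DMSO. Between the arms it was 0.693, 0.703 and 0.705 (exact rank-sum test).

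Downstream, 5 of 7 genes of citrate and cytosolic acetyl-CoA were lower in apilimod and 2 in DMSO, where 29% and 18.9% of all genes were, with median scores of -1.45 and -0.17. CS, the citrate synthase, was at -1.45 ± 1.84 in apilimod and -0.82 ± 1.24 in DMSO (SD, n = 9 guides each), and its log2 ratio of -0.63 ± 1.73 was not called (exact rank-sum test, adjusted p = 0.489). SLC25A1, the citrate carrier, and FASN, the fatty acid synthase, were called lower in apilimod than in DMSO, with z of -4.65 and -6.42 beside -2.45 for DLAT. ACLY, which cleaves citrate in the cytosol, was lower in both arms, and its log2 ratio of 0.33 ± 0.84 was not called (SD, n = 10 guides; exact rank-sum test, adjusted p = 0.450). ACACA, the acetyl-CoA carboxylase, had a z of -4.42 and an adjusted p of 0.0546 by the exact rank-sum test. In the remaining citric acid cycle 10 of 14 genes were lower in apilimod and 11 in DMSO, beside the same 29% and 18.9% of all genes, with 0 called between the arms and a median z of 0.37. Among them were the succinate dehydrogenase genes SDHA, SDHB, SDHC and SDHD, the fumarase gene FH and the malate dehydrogenase gene MDH2 in both arms, and SUCLG1 was called in DMSO and not in apilimod. Over the 14 genes z ran from -3.18 for MDH2 to 2.85 for SUCLG1, and 4 had a z below 0. The log2 ratio of MDH2 was -1.095 ± 2.257 (SD, n = 9 guides; exact rank-sum test, adjusted p = 0.679).

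By distance in the plane of scaled scores, the 5 genes nearest to the median of the subunits, which lay at -0.59 in apilimod and -0.39 in DMSO, were CHKA, a choline kinase, SCN3B and CACNA1A, which are ion channel genes, PNPLA7, a lysophospholipase, and SHMT2, the mitochondrial serine hydroxymethyltransferase. Their distances ran from 0.0246 to 0.0482 scaled units, while those of the subunits themselves ran from 0.0463 for PDHB to 0.364 for DLD. The short distances of these 5 genes follow from how they were chosen. Both axes share the initial library, and a likeness over 2 scores says nothing about shared function.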

How the data were processed

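Guide counts came from genomic DNA of 3 libraries, 1 per group. What the authors deposited is the number of reads for every guide, a raw count. They used cutadapt 4.1 for trimming, Bowtie2 2.4.5 for alignment to the guides of the library, and MAGeCK 0.5.9.5 for counting. The deposited table of all libraries was checked against the single files, and 0 values differed.

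Guides under 100 initial counts (5 of 90 member guides) and genes with fewer than 6 guides left were removed. Counts plus 1 were divided by the library total, and log2 changes were averaged over guides. With 1 library per group, count models have no residual degrees of freedom and were not used. Tests were exact two-sided rank-sum tests against control guides (Python 3.11.15, scipy 1.17.1), adjusted over 2969 genes. They were also run on simulated guides whose drift was drawn from these control guides. That run therefore cannot show an offset between gene-targeting guides and controls. Counting intervals were exact at 95%. The nucleotide synthesis list stood in for the core essential genes of the study's methods, whose members were not given in the sources used here. Its median scores were -1.71 in apilimod and -1.46 in DMSO.

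Members and lists were chosen with earlier results of these data known. All members were named, with genes of the related lists called in any comparison (not of the 2 lists that set the scale), and the 5 genes of nearest scores. Some genes that this rule would name are not reported here. BCKDHA, BCKDHB, DBT, MPC1 and MPC2 fall outside this rule and were chosen after their values were seen. Alternatives changed the count minimum, pseudocount, null guides, guide left out, mean or median, and scaling.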

Additional observations from a re-analysis of the deposited data

How the results depend on the processing

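Of 234 values of single members under the alternatives, 222 kept their call or lack of one, 11 lost a call, 1 gained one and 0 turned direction while called. The calls lost were mostly those against all gene-targeting guides. With that null, the members called numbered 3 for apilimod against the initial population (5 against the control guides), 2 for DMSO against the initial population (5), of which 1 was PDK4 as higher, and 0 for apilimod against DMSO (1). With the N-glycan precursor genes as the -1 of the scale, 0 members were called between apilimod and DMSO, at a z of -2.05 for DLAT. Over all genes this comparison gave 16 lower and 6 higher as reported, 36 lower and 1 higher without scaling, 8 lower and 17 higher with the N-glycan reference, 41 lower and 1 higher with a minimum of 30 initial counts, 39 and 1 with no minimum, 24 and 2 with a minimum of 300, 19 and 2 with a pseudocount of 10, 20 and 2 with medians over guides, 30 and 7 without the farthest guide, and 7 and 6 against all gene-targeting guides. Against all gene-targeting guides the genes lower than the null numbered 225 in apilimod and 222 in DMSO, where 862 and 560 were lower than the control guides. The cause of these shifts was not tested. No paired analysis was possible because each group held 1 library. The 20 controls that started with fewer than 200 counts stood at a median of 1.91 (apilimod) and -0.06 (DMSO) on the log2 scale, and with these left out every member kept its call. The counting intervals cover the counting of reads only, and how counting error compares with the spread between guides was not tested.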
